A study of Mus musculus with 4 samples.

Results

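Conventional dendritic cells of the injured brain were examined among CD45+ cells from the thalamus and from the hippocampus (HPC). They were chosen by transcript counts, as cells with at least 1 UMI (a molecule counted once by its unique identifier) of Flt3 and at least 20 UMIs of the major histocompatibility complex (MHC) class II genes H2-Aa, H2-Ab1, H2-Eb1 and Cd74. A chosen cell had 0 UMIs of the T cell genes Cd3d, Cd3e and Cd3g and of the B cell gene Cd79a, and fewer than 10 UMIs of the microglial genes Tmem119 and P2ry12 per 10000. This gave 214 cells of 24939 (0.858%), 114 in the thalamus and 100 in the HPC. A cell with at least 1 UMI of Xcr1 or Clec9a was called type 1, and a cell with at least 2 UMIs of Ccr7 and Fscn1 together migratory. This left 158 remaining cells beside 41 type 1 and 15 migratory cells. The 2 cells that passed both class rules were counted as type 1.

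The cells came from C57B6/J mice, primarily female per the methods of the study, and all groups had a cortical brain injury, so no comparison was with uninjured brain. Live CD45+ cells (leukocytes, microglia included) had been sorted from the injured hemisphere, tagged with multiplexing oligos, pooled in equal numbers from 4 mice per region and sequenced as single cells in droplets (scRNA-seq). Each region held 4 deposited sets, each taken as the cells of 1 mouse, an assignment made here and not found in the labels. The p-values therefore measure the spread between these sets. Thalamus and HPC cells ran in separate libraries, and the effects of region and of library cannot be told apart. Cells of the tissue, of its borders and of its blood cannot be told apart by the sort.

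Dendritic cells take up antigen, cut it into peptides and present these to T cells on MHC molecules. They depend on the receptor tyrosine kinase Flt3, and the transcription factor Zbtb46 marks their lineage. Type 1 cells need the transcription factors Irf8 and Batf3, carry the chemokine receptor Xcr1 and the dead-cell receptor Clec9a, and are known for presenting captured antigen to CD8+ T cells. Type 2 cells carry lectins such as Cd209a, Clec10a and Mgl2 and are known for priming CD4+ T cells. Cells of either type that mature take up Ccr7, the receptor that guides them to lymph nodes, and the actin-bundling protein Fscn1. The healthy brain holds few of them outside the meninges and choroid plexus.

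The values that chose the members are given as a description. Flt3 was read from exactly 1 UMI in 87 of the 214 cells and from 2 or more in 127, with a median of 2 and a highest value of 13. The class II genes had a median of 386 UMIs per cell, 8 cells had 20 to 39, and 5 cells with Flt3 lay just outside with 10 to 19. For the microglial genes, 18 cells had 5 to 10 UMIs per 10000 and 4 cells lay just outside with 10 to 19. Within type 1, 18 of 41 cells rested on a single UMI of Xcr1 and Clec9a. Of the migratory cells, 3 had exactly 2 UMIs of Ccr7 and Fscn1, and 15 of the remaining cells had 1. A limit of 2% mitochondrial counts, taken over from the study, removed 42 of 256 cells that met the other criteria (16.4%). A Flt3 UMI was found in 1.15% of microglia, which had a median of 4655 UMIs per cell, and in 0.350% of T cells, which had a median of 3843, against 7593 in the dendritic cells. Microglia were here the cells at or above the microglial limit that failed the class II criterion or had a UMI of Cd3d, Cd3e, Cd3g or Cd79a. T cells were those with at least 2 UMIs of Cd3d, Cd3e and Cd3g, so a cell could enter both groups.

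Genes that the rule did not use were read to check the name. Counts were summed over cells and divided by all UMIs of these cells, as CPM, a level scaled to a common library total. Zbtb46 stood at 121 CPM in the dendritic cells, 16.4 in cells that met the rule in all but Flt3, 7.50 in microglia and 3.21 in T cells. Dpp4, a surface peptidase of dendritic and T cells, stood at 337, 47.2, 0.993 and 53.2 CPM in the same order. Zbtb46 had a UMI in 108 of the 214 cells. Other cell types were read from their marker lists. The border macrophage list summed to 145 CPM, with 2 of 8 genes at 0 (Lyve1 and Cbr2) and Mrc1 at 66.6 CPM. The list of other brain cells summed to 127 CPM, with 3 of 7 genes at 0 (Mog among them) and Mbp, a myelin gene, at 107 CPM. The 11 monocyte genes summed to 4015 CPM, 1913 to 6729 over the 8 sets, against 12312 CPM in the cells without Flt3. In the dendritic cells the lists of other cells summed to 79.4 CPM (T cell), 176 (B cell), 399 (NK cell) and 115 (neutrophil), rule genes left out.

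The name held less well for a small group of cells. Siglech and 9 further genes typical of plasmacytoid dendritic cells, which make interferon and also carry Flt3, were counted in each cell. A limit of 6 or more of the 10 genes with a UMI, chosen after the values were seen, marked 10 of the 214 cells. These were 4 type 1 cells, all without an Xcr1 UMI, and 6 remaining cells, with 3 from thalamus set 3, 2 from thalamus set 4 and 5 from HPC set 1. A further 3 cells had 5 of the genes, 20 had 4, and 181 had 3 or fewer. Siglech, a plasmacytoid lectin, stood at 1212 against 60.4 CPM in the 10 cells and the other 204, and Runx2, a transcription factor of the lineage, at 979.6 against 42.6 CPM. The surface protein Ly6d stood at 1263 against 1.27 CPM, with a UMI in 5 of the 10 cells. The 10 cells meet the rule and were kept. Without them the difference between the regions was 0.495 percentage points in the share of type 1 cells and 0.797 in that of migratory cells, against 1.31 and 0.342 with them (adjusted p = 1 in each exact permutation test). Their effect on the comparison of type 1 with remaining cells is given there.

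The 8 sets held 2072 to 5389 kept cells each, with 9789875 to 26636526 UMIs and set medians of 4261.5 to 4657 UMIs per cell. Of all barcodes, 65 occurred in both regional libraries, 3 of them with a dendritic cell in one region and 0 with a dendritic cell in both. Median UMIs per cell were 9166 for type 1, 6318 for migratory and 7462 for remaining dendritic cells.

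Dendritic cells were found in all 8 sets, with no difference in their share between the regions beyond the spread between sets. The thalamus sets held 40, 39, 12 and 23 dendritic cells and the HPC sets 63, 19, 9 and 9. As a share of all cells, these were 1.22, 1.5, 0.555 and 0.659% in the thalamus sets and 1.17, 0.526, 0.434 and 0.386% in the HPC sets. The first 2 thalamus sets lay above every HPC set, and the other thalamus sets lay within the HPC range. Mean shares were 0.983 ± 0.452% and 0.629 ± 0.365% (SD, n = 4 each), a difference of 0.354 percentage points. A two-sided exact permutation test over the 70 assignments gave p = 0.171, and 0.686 after Benjamini-Hochberg adjustment over 4 shares, with 0.0286 as the smallest p possible. A single share that differed could thus not pass the threshold after adjustment (0.114 at the least). For counting error alone, each set's share had an exact 95% binomial interval. The lowest bound of any set was 0.177% (HPC set 4, up to 0.732%) and the highest 2.05% (thalamus set 2, from 1.07%). The denominator mattered, since 638 to 1833 cells per thalamus set and 184 to 2305 per HPC set lay under the microglial limit. Taken over cells under the microglial limit alone, the mean share was 2.18% in the thalamus and 3.41% in the HPC, which put the difference at -1.23 percentage points (p = 0.114, exact permutation test).

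**Figure D1:**
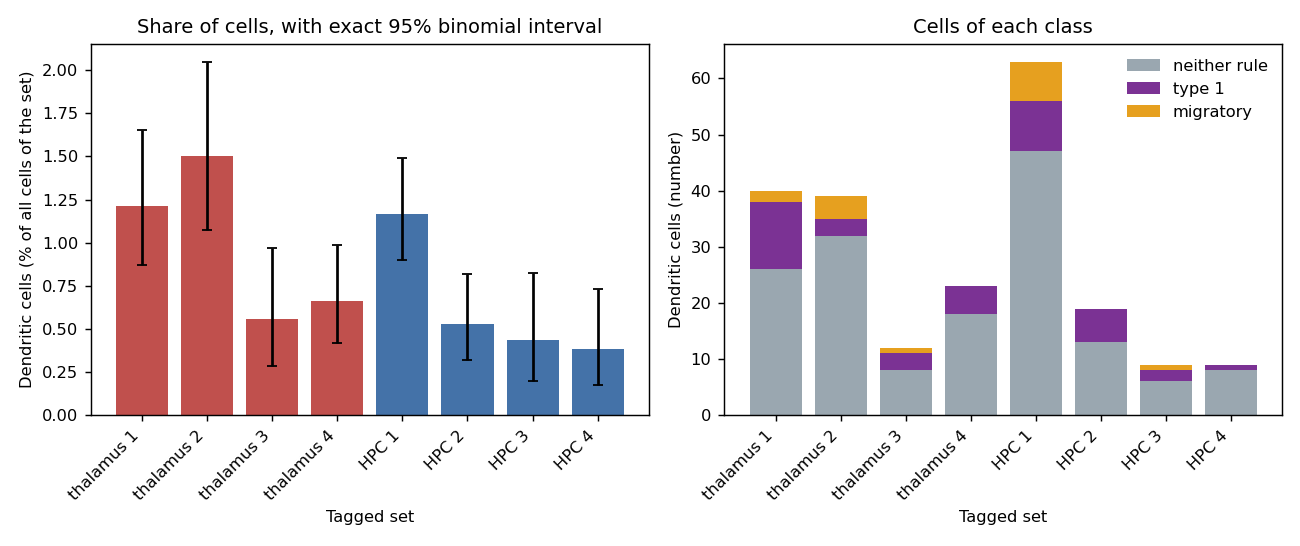
Share of dendritic cells among all kept cells (left, percent, with exact 95% binomial intervals) and number of type 1, migratory and remaining (neither rule) dendritic cells (right, cells) in each of the 4 thalamus and 4 HPC sets. Thalamus sets 1 and 2 (1.22% and 1.5%) sit above the 4 HPC sets (0.386% to 1.17%), the other thalamus sets do not, and migratory cells are few in every set.

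No class differed between the regions in its share of the dendritic cells beyond the spread between sets. Type 1 cells numbered 12, 3, 3 and 5 in the thalamus sets and 9, 6, 2 and 1 in the HPC sets. Their share was 21.1 ± 9.57% in the thalamus and 19.8 ± 9.14% in the HPC (SD, n = 4 each), which put the difference at 1.31 percentage points. Migratory cells numbered 2, 4, 1 and 0 in the thalamus sets and 7, 0, 1 and 0 in the HPC sets, and 7 of the 15 came from HPC set 1. Their share differed by 0.342 and that of the remaining cells by -1.65 percentage points. Each of these 3 differences had an adjusted p of 1 in the exact permutation test, and each changed its sign when single sets were left out (type 1 from -1.66 to 5.78, migratory from -1.51 to 2.31 and remaining from -4.67 to 3.10 percentage points), as did that of type 1, to -0.588, when cells were thinned to 2000 UMIs. With 9 dendritic cells each in HPC sets 3 and 4, a class share there rests on very few cells, so no difference was detectable at this depth.

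The marker genes named the classes by construction, and their levels are given as a description. Flt3 (GRCm38 chr5:147330741-147400489, minus strand) stood at 318, 330.4, 264 and 260.3 CPM in the dendritic cells of the thalamus sets and 356, 359.5, 478 and 250.1 CPM in those of the HPC sets, so the regions overlapped. Xcr1 (chr9:123852315-123862029, minus strand) stood at 40.6, 3.67, 59.9 and 86.8 CPM and 21.4, 59.9, 42.2 and 0 CPM, and was at 0 in HPC set 4. Clec9a (chr6:129408862-129424763, plus strand) stood at 84.7, 11, 59.9 and 70.5 CPM and 37.0, 73.2, 127 and 125 CPM. Both type 1 markers were lowest in thalamus set 2 among the thalamus sets, which held 3 type 1 cells of 39. Ccr7 (chr11:99144196-99155077, minus strand) stood at 61.0, 114, 144 and 0 CPM and 83.7, 0, 183 and 0 CPM, and was at 0 in the 3 sets with no migratory cell. Outside the dendritic cells, a Clec9a UMI was found in 0.0875% of T cells and 1.90% of the cells without Flt3.

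Cd209a (chr8:3743397-3748984, minus strand), the lectin also known as DC-SIGN in its human form, was used by no rule. It stood at 274, 345, 372 and 526 CPM in the dendritic cells of the thalamus sets and 296, 213, 394 and 413 CPM in those of the HPC sets, which overlapped. By class it stood at 426 CPM in the remaining cells, 131 in type 1 cells and 0 in migratory cells. A UMI of Cd209a, Clec10a or Mgl2 was found in 117 of the 158 remaining cells (74.1%). Zbtb46 was detected at like levels in the classes, with 151 CPM in type 1, 171 in migratory and 106 in remaining cells. Ccr2, the receptor that brings monocyte-derived and precursor cells out of the blood, stood at 430.2, 352, 359.6 and 743 CPM in the thalamus sets and 461, 632, 703 and 400.1 CPM in the HPC sets.

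**Figure D2:**
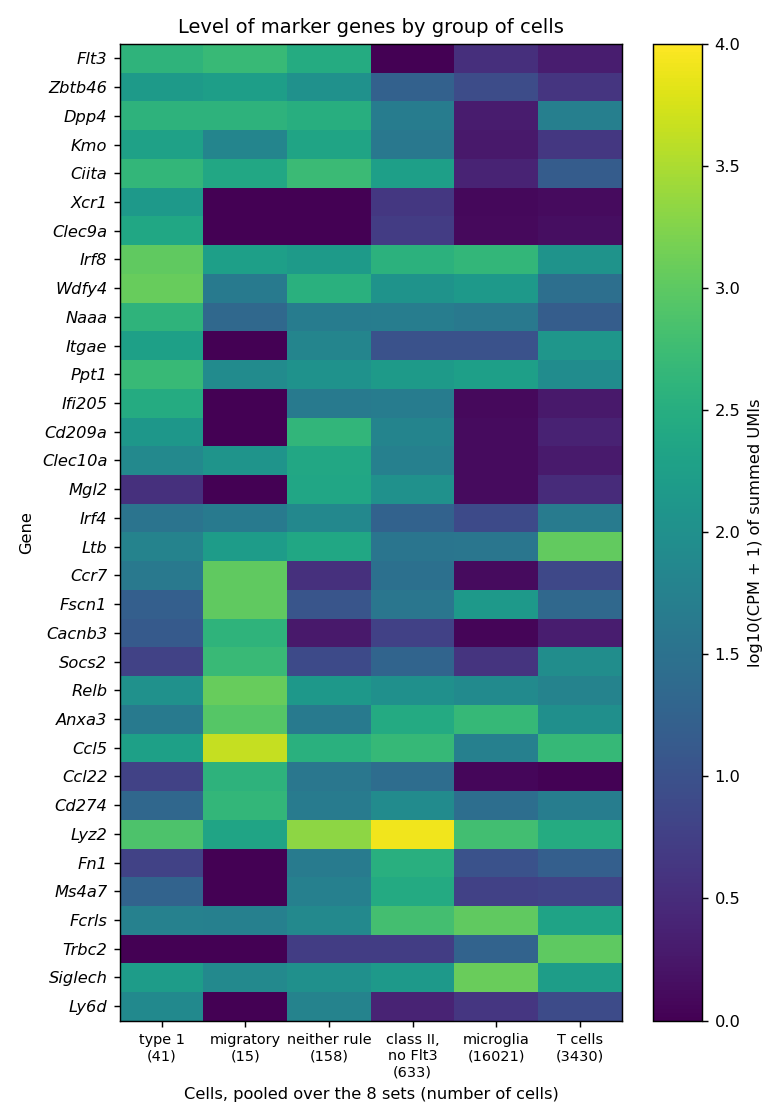
Pooled level of the marker genes (rows, log10 of CPM plus 1) in type 1, migratory and remaining (neither rule) dendritic cells, in class II cells with no Flt3 UMI, in microglia and in T cells (columns). Genes of the rule are high where the rule placed them, and Zbtb46 and Dpp4, which it did not use, are higher in the dendritic classes than in the cells without Flt3.

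To ask how type 1 cells differed from the remaining cells in genes the rule did not use, counts were summed per set and class. The 4 sets with at least 5 cells in both classes (thalamus sets 1 and 4, HPC sets 1 and 2) were compared within sets. Of 1727 genes tested, 32 were called (1.85%) at an adjusted p under 0.05 in edgeR's quasi-likelihood test with Benjamini-Hochberg adjustment, 19 higher (1.1%) and 13 lower (0.753%) in type 1 cells. Each of the 32 had the same sign in all 4 sets. The median log2 fold change over all genes tested was -0.00329. Without adjustment, 199 genes had p under 0.05.

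Irf8 (chr8:120736358-120756694, plus strand), the transcription factor on which the type 1 lineage depends, rose most. In thalamus sets 1 and 4 and HPC sets 1 and 2 it stood at 1210.2, 1858, 886 and 1054 CPM in type 1 cells and 118, 191, 172 and 171 CPM in remaining cells. The lowest type 1 value lay well above the highest remaining value. The means were 1252 ± 425 and 163 ± 31.1 CPM (SD, n = 4), with a log2 fold change 2.89 ± 0.25, adjusted p = 5.26e-06 (edgeR). Here and below, the ± of a log2 fold change is a standard error derived from the edgeR test statistic, not an SD between sets. Wdfy4, a protein known to be needed for cross-presentation by type 1 cells, stood at 1089, 1482, 1196 and 1182 CPM in type 1 and 450.4, 313, 388 and 148 CPM in remaining cells (log2 fold change 1.93 ± 0.25, adjusted p = 0.00036, edgeR). The values of the classes did not overlap for Wdfy4 either. The lysosomal enzyme Ppt1 rose with a log2 fold change 2.11 ± 0.29, adjusted p = 0.000548 and the interferon-inducible gene Ifi205 with a log2 fold change 2.35 ± 0.45, adjusted p = 0.00955 (both edgeR).

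Further genes that rose in type 1 cells were Trim35 (log2 fold change 1.96), the kinase Lrrk2 (1.94), the membrane-bending protein Fchsd2 (1.92), Ccser1 (1.79) and the actin regulator Fmnl2 (1.45). Beyond the 10 largest rises, Cst3, the protease inhibitor cystatin C, rose by 1.28 and Plbd1 by 1.09. Without HPC set 1, Lrrk2 (1.66, adjusted p = 0.105), Ccser1 (1.83, adjusted p = 0.0594) and Fmnl2 (1.12, adjusted p = 0.241) were no longer called by edgeR, and without thalamus set 1 neither was Ifi205 (1.90, adjusted p = 0.105). Ccser1 and Fmnl2 were not called by DESeq2 either.

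Mgl2, a lectin of type 2 cells, fell most. It stood at 0, 0, 0 and 16.0 CPM in type 1 cells and 158, 259, 127 and 263 CPM in remaining cells, from 1 UMI against 133. The remaining cells were thus 54.4-fold higher per UMI, with a 95% counting interval of 9.59 to 2164 that covers counting error only (adjusted p = 0.000141, edgeR). Cd209a stood at 55.9, 37.5, 192 and 47.9 CPM in type 1 cells and 422, 724, 354 and 331 CPM in remaining cells (log2 fold change -2.32 ± 0.40, adjusted p = 0.00508, edgeR). The classes did not overlap in Mgl2 or in Cd209a. The prostaglandin-degrading enzyme Hpgd (-2.73), Mcemp1 (-2.39), the surface receptor Slamf9 (-1.83), the lysozyme Lyz2 (-1.74), the calcium-binding protein S100a4 (-1.73), Cers6 (-1.53), Ms4a6b (-1.42) and Emp3 (-1.40) also fell, with log2 fold changes in brackets. Lyz2 and S100a4 overlapped between the classes across sets though not within a set, and neither they nor Slamf9, Ms4a6b and Emp3 were called by DESeq2. Without the block for the set, edgeR did not call Lyz2 (-1.35), S100a4 (-1.59) or Emp3 (-1.53). With at least 2 Flt3 UMIs Lyz2 stood at -0.43 (adjusted p = 0.767), and with a mitochondrial limit of 5% Slamf9, Cers6 and Emp3 stood at -0.89, -0.59 and -0.31 (adjusted p = 0.102, 0.357 and 0.534, edgeR). Without the 10 cells rich in plasmacytoid genes Slamf9 (-1.68, adjusted p = 0.0855) and Ms4a6b (-1.06, adjusted p = 0.0951) were not called by edgeR. Calls by edgeR that rested on single sets were Cers6, Ms4a6b, Emp3 and Slamf9, which without HPC set 1 stood at -1.34, -1.39, -1.60 and -2.17 (adjusted p = 0.0671, 0.146, 0.0513 and 0.0671). Without thalamus set 4, Emp3 (-1.07, adjusted p = 0.0712) and Slamf9 (-1.48, adjusted p = 0.113) were not called, and without thalamus set 1 neither was Slamf9 (-1.95, adjusted p = 0.0812).

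By gene list, counts are to be read beside the 1.1% of all 1727 genes called higher and the 0.753% called lower. The type 1 list had 17 genes outside the rule, of which 6 had enough counts for the test. Of these, 4 were called higher (Irf8, Wdfy4, Ppt1, Ifi205), with a median of 2.02 over the 6. The other 2 members tested were Id2, at a log2 fold change of 0.98 (adjusted p = 0.0559, edgeR), and Batf3, at 0.65 (adjusted p = 0.517, edgeR). In the type 2 list, 9 of 13 genes were tested, 2 were called lower (Mgl2, Cd209a), 0 higher, and the median was -1.23. Sirpa, an inhibitory receptor of type 2 cells, stood at 122 and 253 CPM in the classes (adjusted p = 0.111, edgeR). In the lists of class I presentation (8 of 11 tested, median 0.076), class II presentation outside the rule (8 tested, median -0.302), interferon response (8 of 14, median -0.299), co-stimulation (4 of 12, median 0.162) and chemokine receptors (4 of 10, median -0.209), 0 genes were called. Of the monocyte list 6 of 11 were tested and 1 (Lyz2) was called lower, with a median of -0.325. Some type 1 members were too sparse for the test, such as Cadm1, an adhesion molecule, at 71.8 against 28.3 CPM and the integrin Itgae at 187 against 66.0 CPM in pooled cells.

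The count of 32 moved with the cells that entered. It was 69 without thalamus set 4 and 55 without HPC set 2, 59 without the 10 cells rich in plasmacytoid genes (28 of them shared with the 32), 17 by DESeq2 and 1 when the sums were cut to the same number of cells.

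**Figure D3:**
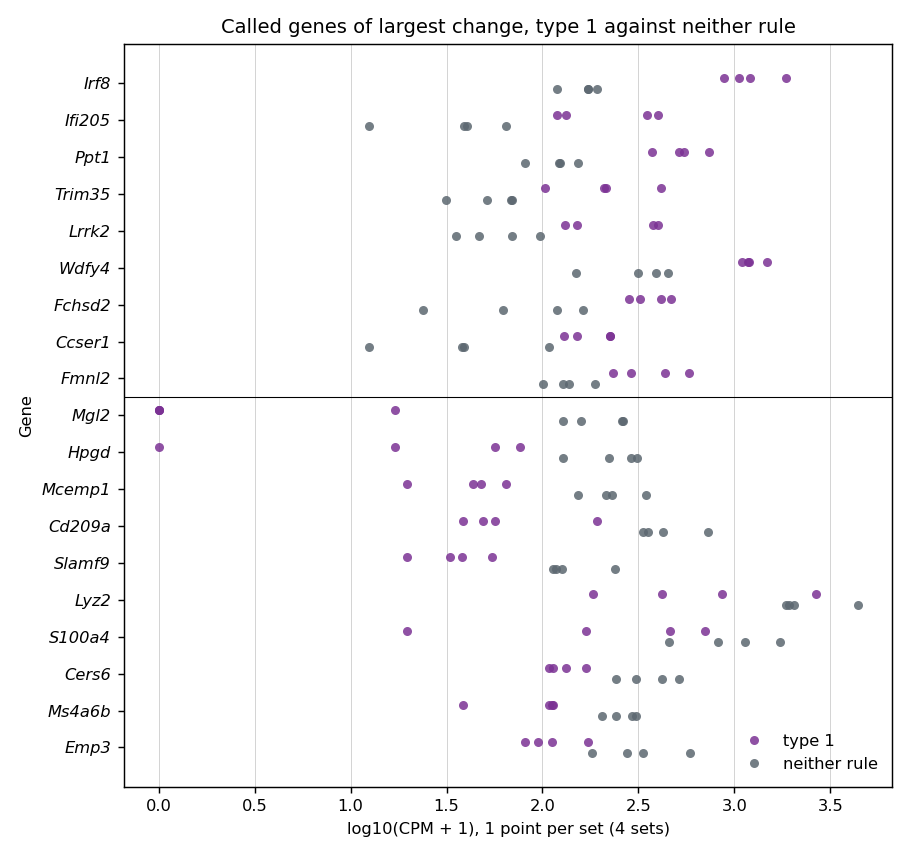
Level of genes among the 10 largest rises and the 10 largest falls (rows) in type 1 cells (purple) and in remaining cells, which met neither class rule (grey), as log10 of CPM plus 1 on the horizontal axis, with 1 point for each of the 4 sets compared. Irf8 runs from 886 to 1858 CPM in type 1 and from 118 to 191 CPM in remaining cells, and all Mgl2 and Cd209a points of type 1 lie to the left of those of the remaining cells.

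Type 1 was not one uniform group. Xcr1 had a UMI in 17 of the 41 cells, 13 of them with Clec9a as well, and 24 cells entered by Clec9a alone. These subgroups are described with no test, since Xcr1 chose them. Genes of the type 1 list, summed, stood at 8540.2 CPM in the Xcr1 cells and 3032 CPM in the Clec9a-only cells, with Xcr1 and Clec9a themselves included in both sums. Wdfy4 stood at 1898 and 533 CPM, Ppt1 at 900.4 and 122, and Itgae at 339.7 and 48.9. The Xcr1 cells were higher in each of these 3 genes. In the remaining cells Wdfy4 stood at 347, Ppt1 at 108 and Itgae at 66.0 CPM. The type 1 list summed to 1256 CPM there, with Xcr1 and Clec9a at 0 by rule. The Clec9a-only cells were thus near the remaining cells in Ppt1, below them in Itgae and above them in Wdfy4 and the list sum. Cd209a had a UMI in 1 of the Xcr1 cells and 12 of the Clec9a-only cells (5.39 and 245 CPM), and S100a4 stood at 32.3 and 646 CPM. The plasmacytoid list stood at 658 and 2098 CPM, and Cd7, which such cells also carry, at 0 and 372 CPM. The Clec9a-only cells thus held most of the Cd209a and plasmacytoid transcripts of type 1, and 4 of them were among the 10 cells rich in plasmacytoid genes. The other 6 of the 10 were remaining cells, and the part of the Clec9a-only cells in the comparison of type 1 with the remaining cells was not tested.

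Migratory cells numbered 15, and a single set (HPC set 1) held at least 5 of them, so no test was made. Pooled levels are given with 95% counting intervals, which cover counting error only. All 18 genes of the migratory list that the rule did not use stood higher in migratory than in remaining cells by pooled level. Among them, 16 had at least 20 UMIs in the 2 classes together, of which 16 were higher and 15 at least 4-fold higher, where 42.3% of the 7036 genes with that many UMIs were higher and 2.87% at least 4-fold higher. Relb, a subunit of NF-kappaB that drives dendritic cell maturation, stood at 1184 against 137 CPM (8.64-fold, interval 6.72 to 11.1), with a UMI in 15 of 15 migratory cells and 69 of 158 remaining cells. The calcium channel subunit Cacnb3 stood at 405 against 0.857 CPM (473-fold, interval 79.9 to 19169), with 1 UMI in the remaining cells. Socs2, a suppressor of cytokine signalling, stood at 512 against 6.86 CPM (74.7-fold, interval 35 to 183). Cacnb3 and Socs2 were thus rare outside the migratory cells, while Relb was detected in both classes.

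The other members of the list followed the same direction. Il4i1, an enzyme that consumes phenylalanine, stood at 608 against 52.3 CPM, Anxa3 at 885 against 42.8 CPM, Serpinb6b at 309 against 3.43 CPM and Cd200, an inhibitory surface ligand, at 309 against 10.3 CPM. Apol7c had 31 UMIs in migratory and 0 in remaining cells, and was 129-fold higher when the remaining cells were set to a floor of 3 counts over the group. Nudt17 and H2-M2, also at 0 in the remaining cells, were 53.9-fold and 74.7-fold higher with the same floor. These ratios do not allow for counting error in the migratory cells. A UMI of Apol7c was found in 4 of the 15 migratory cells, one of Nudt17 in 7 and one of H2-M2 in 3. The smallest ratio was that of Nfkb2, at 181 against 46.3 CPM. Set by set, Stat4, Zmynd15 and H2-M2 were higher in 3 of the 5 sets with migratory cells, and each other gene of the list in 4 or 5. The count of 18 of 18 did not change under any alternative, HPC set 1 left out included. The list was chosen with earlier results of these data known, so the count is not an independent check. Outside the lists, and chosen after their values were seen, Gadd45b, a stress-response gene, stood at 853 against 18.0 CPM and Strip2 at 277 against 2.57 CPM.

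Ligands, receptors and presentation genes of the migratory cells were read from further lists. Of the co-stimulation and co-inhibition list, 11 of 12 genes had at least 20 UMIs, 9 were higher in migratory cells and 6 at least 4-fold. Of the 7036 genes with that many UMIs, 42.3% were higher and 2.87% at least 4-fold higher. Cd80, which binds CD28 on T cells, stood at 309 against 45.4 CPM, the maturation marker Cd83 at 672 against 127 CPM, and Cd274, which encodes the checkpoint ligand PD-L1, at 448 against 45.4 CPM (9.86-fold, interval 6.42 to 15.1). Tnfrsf4, the receptor OX40, stood at 267 against 2.57 CPM. The 2 members that were not higher were Havcr2, at 21.3 against 81.4 CPM, and Vsir, at 85.3 against 103.7 CPM, both known as inhibitory molecules. Of the chemokine and cytokine list, 13 of 23 genes had at least 20 UMIs. Of these, 6 were higher, near the 42.3% of all genes, and 4 at least 4-fold, beside the same 2.87%. Ccl5, which draws T cells, stood at 4374 against 348 CPM with a UMI in 13 of 15 and 34 of 158 cells, Ccl22, a ligand of Ccr4, at 384 against 37.7 CPM, and Il15ra, which presents interleukin 15, at 213 against 10.3 CPM. Il12b had 1 UMI in the migratory cells, and Il10, Il12a and Il23a had 0 in the 214 cells.

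Class I presentation was higher in 8 of 11 genes, where 42.3% of the 7036 genes were higher. The factors were small, and 0 genes were at least 4-fold higher. H2-K1, a class I heavy chain, stood at 2432 against 1189 CPM and B2m, its light chain, at 3062 against 1772 CPM. The interferon response list lay the other way, with 1 of 14 genes higher and 5 at least 4-fold lower, where 11.3% of the 7036 genes were at least 4-fold lower. Ifi27l2a, one of the 5, stood at 32.0 against 306 CPM, and Ifitm3, less far apart, at 608 against 2393 CPM. Ccr2 stood at 42.7 against 502 CPM, Lyz2 at 213 against 2104 CPM and Wdfy4 at 42.7 against 347 CPM, while Cd209a had 0 UMIs in the migratory cells and 497 in the remaining ones. Of the monocyte list, 4 of 10 genes with enough UMIs were at least 4-fold lower, beside the same 11.3%, and the border macrophage list was at 0 CPM in the migratory cells. The microglia list outside the rule lay higher, at 1515 against 986 CPM, with 4 of 5 genes with enough UMIs higher. Also higher were the lists of T cells (213 against 66.8 CPM, most of it Il7r) and other brain cells (171 against 127 CPM). Lower were those of NK cells (128 against 474 CPM), B cells (21.3 against 191 CPM) and neutrophils (117 against 139 CPM).

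The nearest other population was the 633 cells that met the rule in all but Flt3, and dendritic cells were compared with them within the 8 sets. Of 3945 genes tested, 1204 were called (30.5%) by edgeR's quasi-likelihood test with Benjamini-Hochberg adjustment, 587 higher (14.9%) and 617 lower (15.6%) in dendritic cells. The median log2 fold change of all genes tested was 0.01, so lists are read against a value near 0. The cells without Flt3 were shallower, with a median of 6321 UMIs against 7593, and how many of them were dendritic cells in which no Flt3 UMI was caught was not tested.

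Genes of the dendritic lineage rose. Dpp4 stood at 228 to 475 CPM over the 8 sets in dendritic cells and 8.59 to 67.0 CPM in the cells without Flt3, which did not overlap (log2 fold change 2.91 ± 0.22, adjusted p = 1.87e-08, edgeR). Bcl11a, a transcription factor of lymphoid and dendritic precursors, stood at 177 ± 65.0 and 25.1 ± 17.4 CPM (SD, n = 8), with a log2 fold change of 2.59. Of the 6 genes of the common dendritic list outside the rule, 5 were tested (Zbtb46 did not pass the filter on low counts). Of these, 4 were called higher (Dpp4, Bcl11a, Kmo, Ciita), beside 14.9% of all genes tested, with a median of 2.32. Itgax, which encodes CD11c and is shared with macrophages, stood at 112 and 119 CPM (log2 fold change 0.05, adjusted p = 0.912, edgeR).

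The other large rises were Lrrk2 (log2 fold change 2.94), Cd209a (2.53), the stem cell factor receptor Kit (2.52), the inhibitory receptor Btla (2.51), Srgap3 (2.51), the catenin Ctnnd2 (2.46), Klrd1, a lectin-like receptor better known from NK cells (2.40), and the cytokine lymphotoxin beta, Ltb (2.34). Klrd1 made up most of the summed NK cell list in the dendritic cells, 394 of 399 CPM. Each of these rises was called under every alternative in which the gene was tested.

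The class II pathway outside the rule rose with them. All 8 genes were tested, 7 were called higher and 1 lower, with a median of 1.09, beside 14.9% and 15.6% of all genes. H2-DMb2, a chain of the peptide-loading protein H2-M, stood at 197 ± 57.7 and 47.3 ± 28.4 CPM (SD, n = 8, log2 fold change 2.16 ± 0.23, adjusted p = 1.09e-06, edgeR), and the H2-O chain H2-Ob rose by 1.74. Ciita, the activator of class II genes, rose by 1.29 on the log2 scale. The member called lower was Ctss, the protease cathepsin S, at -1.18. The rule asked for class II UMIs in both populations, so the class II chains themselves were not compared. Class I genes were divided, with the immunoproteasome subunits Psmb8 and Psmb9 called higher and B2m, H2-D1 and H2-K1 called lower out of 11 (median 0.057).

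Genes of monocytes, macrophages and microglia fell. Of the 11 monocyte genes, 8 were called lower and 1 (Plac8) higher, with a median of -2.10. Over all genes tested, 15.6% were called lower and 14.9% higher. Csf1r, the receptor for macrophage growth factors, stood at 190.0 and 760.4 CPM. All 3 border macrophage genes tested (of 8) and 4 of 5 microglial genes tested were called lower, and the fifth, Selplg, was called higher. The border macrophage list summed to 145 CPM in the dendritic cells and 702 in the cells without Flt3, and the microglial genes outside the rule to 1031 and 3570.1. Among the largest falls were Spp1 (-6.01), the lipase Lpl (-4.24), Pla2g7 (-4.13), Apbb2 (-3.51), the protease inhibitor Timp2 (-3.46), the growth factor Csf1 (-3.76), the complement chain C1qa (-3.22), and the chemokines Ccl3 (-3.70) and Ccl4 (-3.34). The part of free microglial and macrophage RNA in either population was not tested.

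The lists that split dendritic cells into types moved in both directions here. The counts below are to be read beside the 14.9% of all 3945 genes called higher and the 15.6% called lower. Of the type 1 list, 9 of 17 genes were tested, 5 were called higher and 2 lower (median 1.24), and Irf8 stood at 371 and 358 CPM (log2 fold change -0.08, adjusted p = 0.885, edgeR). Of the type 2 list, 10 of 13 were tested, 5 were called higher (Cd209a, Ltb, Clec10a, Klf4, Notch2) and 4 lower (Zeb2, Sirpa, Itgam, Clec4a2), the last 4 being known from macrophages too. Of the migratory list, 8 of 18 were tested, 5 were called higher and 1 lower (median 0.701). Of the co-stimulation list 1 gene (Icosl) was called higher and 2 (Vsir, Cd86) lower out of 7, of the interferon list 1 higher and 1 lower out of 12, and both Toll-like receptors tested (Tlr2, Tlr7) were lower. Of the chemokine and cytokine list, 4 of 6 tested were called lower (Ccl3, Ccl4, Tgfb1, Cxcl16) and 0 higher. The immediate-early genes of the dissociation response list, which tissue handling can raise, had 1 gene higher and 1 lower of 12, with a median of -0.093.

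**Figure D4:**
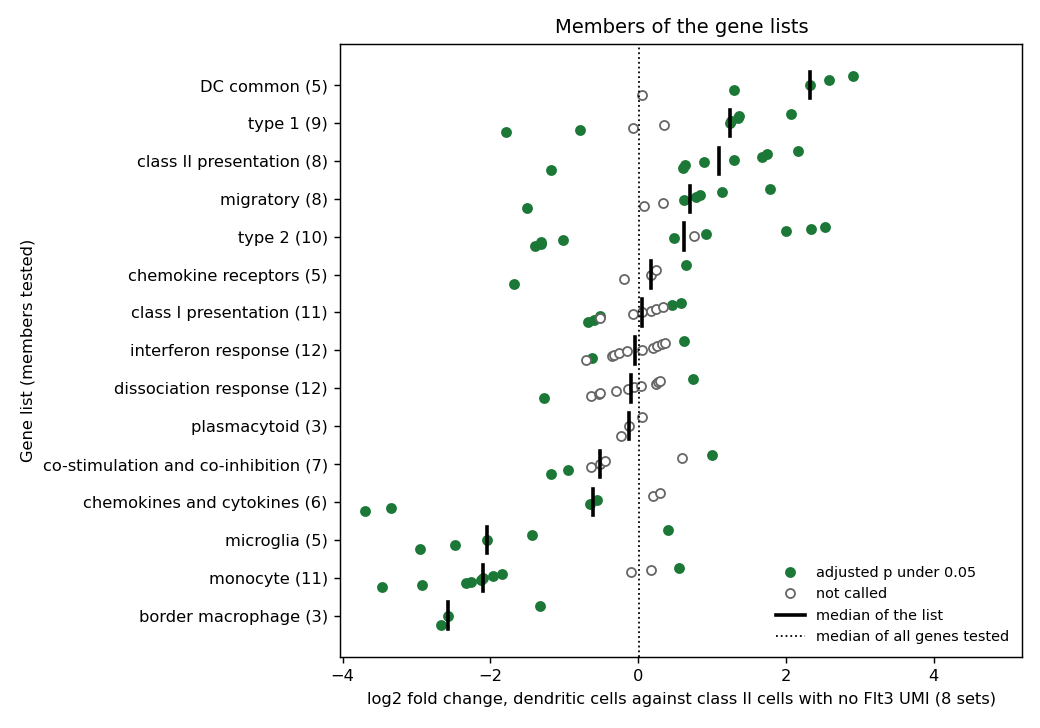
Members of the gene lists (rows, with the number tested) in dendritic cells against class II cells with no Flt3 UMI, with the log2 fold change over 8 sets on the horizontal axis, 1 point per gene, filled where the adjusted p was under 0.05, a bar at the list median and a dotted line at the median of all genes. The medians run from 2.32 for the common dendritic list down to -2.10 for the monocyte and -2.58 for the border macrophage list.

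Between the regions, dendritic cells differed in a single called gene. Counts were summed over the dendritic cells of each set with at least 10 of them, which gave the 4 thalamus sets and HPC sets 1 and 2. Of 4578 genes tested, 1 was called (0.0218%), higher in the thalamus, by edgeR's quasi-likelihood test with Benjamini-Hochberg adjustment. DESeq2 called 1 gene as well, and 153 genes had an unadjusted p under 0.05. In each of the 22 lists, 0 genes were called. The type 2 list had the log2 median 0.53 against 0.006 over all genes tested, with 7 of its 11 tested genes above 0. Other lists lay on both sides, with medians of 0.47 (plasmacytoid), 0.29 (interferon response) and -0.15 (chemokines and cytokines). No list was tested as a set.

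The called gene was Spp1 (chr5:104435118-104441050, plus strand), which encodes the secreted protein osteopontin. It stood at 254, 106, 119.9 and 163 CPM in the dendritic cells of the thalamus sets and 3.89, 6.66, 0 and 12.5 CPM in those of the HPC sets, so that the regions did not overlap. The log2 fold change was 5.07 ± 0.61 (adjusted p = 0.00525, edgeR), from 144 UMIs in the 4 thalamus sets against 3 in HPC sets 1 and 2, a ratio of 38.2 with a 95% counting interval of 12.8 to 187. A single dendritic cell of thalamus set 1 held 38 of the 75 Spp1 UMIs of that set. The interval covers counting error only and does not allow for UMIs that share a cell. The call was lost without HPC set 1 (log2 fold change 4.51, adjusted p = 0.334) and when the sums were cut to the same number of cells (6.48, adjusted p = 0.291). Over the 18 alternatives, 16 kept the call, with adjusted p-values in all 18 of 3.97e-16 to 0.334.

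T cells of the same sets were read beside it, as cells not known as the main source of this gene. The share of cells with an Spp1 UMI was 62.5, 48.7, 41.7 and 60.9% in dendritic cells and 55.8, 56.3, 57.7 and 54.8% in T cells of the thalamus sets, at set medians of 7176 to 7523 and 3517 to 3774 UMIs per cell. In the HPC sets it was 3.17, 5.26, 0 and 11.1% in dendritic cells and 3.86, 2.61, 1.75 and 4.22% in T cells. The T cells thus showed the same gap between the regions. By level, T cells stood at 1455, 304, 517 and 577 CPM in the thalamus sets, above the dendritic cells of every one of these sets. The levels are not from like choices of cells, since no microglial limit was set for T cells. The microglia list outside the rule stood at 2198 CPM in T cells against 1031 in dendritic cells, and 1 T cell of thalamus set 1 held 579 Spp1 UMIs. The cells without Flt3 stood at 6127 to 14570.1 CPM in the thalamus and 85.9 to 1547 CPM in the HPC. How much of the Spp1 in dendritic or T cells was free RNA of other cells was not tested, so the difference between the regions is given as a difference in counts and not as one in expression by dendritic cells.

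**Figure D5:**
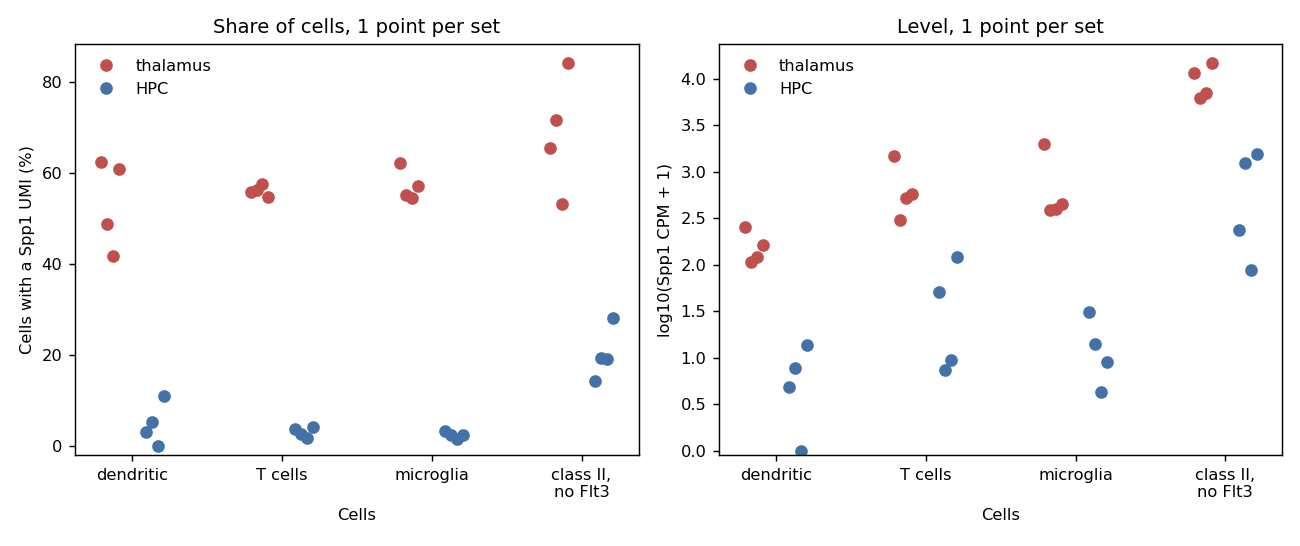
Percent of cells with an Spp1 UMI (left) and log10 of Spp1 CPM plus 1 (right) in dendritic cells, T cells, microglia and class II cells without Flt3, with 1 point per set of the thalamus (red) and HPC (blue). In each region the shares in dendritic cells lie near those in T cells, at 41.7% to 62.5% against 54.8% to 57.7% in the thalamus and 0% to 11.1% against 1.75% to 4.22% in the HPC.

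Lineage and inflammation genes of the dendritic cells overlapped between the regions. Irf8 ranged from 69.7 to 672 CPM over the thalamus sets and up to 539 CPM over the HPC sets, lowest in thalamus set 2, which had the smallest type 1 share. Lyz2 stood at 1385, 1402, 1846 and 3882 and 1465, 1438, 984 and 900.2 CPM, and was highest in thalamus set 4. Il1b, the cytokine interleukin 1 beta, stood at 241, 356, 239.7 and 114 and 451, 133, 14.1 and 138 CPM, and was lowest in HPC set 3, which held 9 dendritic cells. Zbtb46 stood at 156, 106, 168 and 108 and 119, 93.2, 42.2 and 150.0 CPM. None of these 4 genes was called between the regions by edgeR (the smallest adjusted p beyond Spp1 was 0.9996).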

How the data were processed

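Cells of 8 tagged sets, 4 from the thalamus and 4 from the HPC, were analysed. The values deposited by the authors were counts, namely raw UMI counts per gene and cell of 32285 genes and 12 multiplexing oligos, not normalized. The matrices came from Cell Ranger 7.1.0 per the file headers (the study's methods give an older release) and from the mm10 genome (GRCm38). Oligos were left out of all totals, and gene positions are those of GENCODE M21. Whether reads of introns were counted was not given in the sources used here.

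Kept were 24939 of 29190 cells, those with 200 to 7500 genes and a mitochondrial share of 2% or less. Doublets were not removed: Scrublet (scanpy 1.11.5) marked 0% to 2% of a set at its automatic threshold, too few to rely on, and leaving out the top 5% of its scores, with 6 dendritic cells among them, was an alternative. The members, classes and gene lists were chosen with earlier results of these data known. Shares were compared by exact permutation over the 70 assignments of 4 and 4 sets. Counts were summed per set and tested with edgeR 4.0.16 in R 4.3.3 (filterByExpr, TMM factors, quasi-likelihood F-test), with the set as a block where 2 groups of cells of the same sets were compared, and p-values were adjusted by Benjamini-Hochberg across the genes of each fit and called under 0.05. Sets entered with at least 10 dendritic cells (regions) or 5 cells in both classes. DESeq2 1.42.0 was an alternative. The scripts were tested on simulated counts.

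Genes were named where called, at 50 CPM or more in the higher group and with the same direction in every set (for regions, with no overlap), up to 10 per direction by size, and the lists' members besides. Some genes that meet this rule are not reported here. Alternatives changed the Flt3, class II, mitochondrial and microglial limits, thinned cells to 2000 UMIs, took the same number of cells per sum, dropped the filter or the block, and left out each set. Chosen after seeing the data were the share of cells under the microglial limit, lower cell minimums (5 and 3), leaving out shared barcodes or cells with 6 or more plasmacytoid genes, and counting cells of both classes as migratory.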

Additional observations from a re-analysis of the deposited data

Results flagged for a closer look

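In 8 of 102 groups of 4 sets, 1 set lay far from the others relative to the range of the group, where chance gives about 1 group in 20 for normally spread values, a rate that genes with few UMIs need not follow. In the dendritic cells of thalamus set 1, Lpl reached 64.4 CPM against 0 to 5.42 CPM in the other thalamus sets, and Csf1 reached 57.6 CPM against 0 to 5.42 CPM. In the HPC, Lpl stood at 3.89 CPM in 1 set and at 0 in the others. These 2 genes had few UMIs in dendritic cells and were far higher in cells without Flt3.

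Among type 1 cells, Mgl2 stood at 16.0 CPM in HPC set 2 (1 UMI) and at 0 in the other sets, Cd209a at 192 CPM in HPC set 1 against 37.5 to 55.9 CPM, and Ms4a6b at 37.5 CPM in 1 set against 107 to 112 CPM. Among the remaining dendritic cells, Slamf9 stood at 236 CPM in 1 set against 113 to 126 CPM, and Lyz2 at 4377 CPM against 1849.8 to 2038 CPM. In each of these 5 genes the direction between the classes was the same in all 4 sets, which the choice of named genes had required. No cause was tested.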

How the results depend on the processing

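With 4 sets per region, 1 differing share alone could not pass the adjusted threshold (0.114 at the least), so the p-values of the 4 shares say nothing about their stability. The difference in the share of dendritic cells turned from 0.354 to -1.23 percentage points over cells under the microglial limit, that of migratory cells to -0.163 with at least 2 Flt3 UMIs, and that of type 1 cells to -0.588 after thinning. With single sets left out the 4 differences ran from 0.181 to 0.534 (dendritic cells), -1.66 to 5.78 (type 1), -1.51 to 2.31 (migratory) and -4.67 to 3.10 (remaining).

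Between the regions, 1 gene was called, 7 with no filter on low counts, 2 with at least 2 Flt3 UMIs, 0 with the same number of cells per sum and 0 to 1 with single sets left out (0 without HPC set 1). For type 1 against the remaining cells the 32 calls became 17 (DESeq2), 92 (no filter), 1 (same number of cells), 107 (mitochondrial limit of 5%), 59 (without cells rich in plasmacytoid genes) and 28 to 69 with single sets left out (69 without thalamus set 4, 55 without HPC set 2). Against cells without Flt3 the 1204 calls became 1970 (no filter), 239 (same number of cells) and 901 to 1252 with single sets left out. With the same number of cells per sum, fewer UMIs entered each test. The other causes were not tested. Of 276 values under alternatives of the genes named for type 1, 43 lost the call and 0 reversed, and of 326 of those named against cells without Flt3, 0 lost it. The 18 of 18 migratory genes did not change.

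Same-numbered sets of the regions did not deviate together in dendritic cells (correlations -0.0813, 0.0108, 0.0686 and 0.0370 over 2868 genes). Sums of so few cells carry much counting error, so this cannot decide whether same-numbered sets came from the same mouse. With a replicate block the regions again gave 1 call. Numbers of cells limit all region results, since 2 HPC sets held 9 dendritic cells each.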
